A study of Mus musculus with 35 samples.

Results

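The 7 genes described here encode the MHC class II presentation pathway of the mouse: the class II chains H2-Aa, H2-Ab1 and H2-Eb1, the invariant chain Cd74, the transactivator Ciita, and the peptide editor chains H2-DMa and H2-DMb1. They were taken by name from a table of 21203 protein-coding genes measured by RNA sequencing, where each name occurred and each of the 7 genes passed the filter on low counts. The study asked what mesenchymal stromal cells (MSCs) carrying synthetic interleukin-4 (IL-4) mRNA do to the injured mouse brain. Male C57BL/6N mice, 8 to 9 weeks old, received a closed head injury and, on day 5, a single injection into the left hippocampus of PBS, of MSCs, or of MSCs transfected with IL-4 mRNA (IL-4 MSCs). Tissue around the injection site, labelled left cortex, was taken at 1 week post injury (1 wpi, 2 days after treatment) or at 3 weeks post injury (3 wpi, 16 days after treatment). Sham mice went through the surgery without the impact and received no injection, and their group pooled 2 mice of week 1 with 3 mice of week 3.

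There were 34 libraries of 1 mouse each, 5 per group and 4 in the PBS group at 3 wpi, where the authors left out 1 library. The total of estimated counts per library was between 29838423 and 41554322, and levels are given as counts divided by that total and scaled to CPM, the usual depth-adjusted unit. Because the injected MSCs are also C57BL/6N cells and were not sorted from the tissue, their RNA cannot be told apart from that of the host. The PBS groups carry the injury and the needle but no cells, so a comparison with Sham covers injury, injection and treatment together. The dissected tissue held markers of more than 1 brain region: the summed CPM was 647 to 1130 for 8 cortex markers, 196 to 377 for 8 hippocampus markers and 234 to 2617 for 13 striatum markers over all libraries. Within Sham, the striatum markers summed to 251 and 234 CPM in the 2 mice of week 1 and to 734 to 912 CPM in the 3 mice of week 3. Fold changes against Sham use all 5 Sham mice unless stated.

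MHC class II molecules are pairs of an alpha and a beta chain that display peptides from swallowed material to CD4+ T cells. They are made mainly by dendritic cells, macrophages and B cells, while resting microglia carry little of them and gain them when activated. New class II pairs are held by the invariant chain CD74 and guided to endosomes, where proteases shorten CD74 to a small fragment, and the H2-DM pair then removes that fragment so that other peptides can bind. CIITA binds no DNA itself but is recruited by factors seated on the X and Y boxes of class II promoters, and it acts as the switch of the pathway. Mice of the C57BL/6 background make the A pair but lack the alpha chain of the E pair, so H2-Eb1 is transcribed in them without a partner. H2-Ea-ps, the remnant of that alpha chain gene, had at most 1 count in any library.

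Promoters are shown here as the 250 bases before the start of transcription on GRCm38.p6. RefSeq gave windows for 4 of the 7 genes, H2-Aa, H2-Eb1, H2-DMa and H2-DMb1, and the windows of H2-Eb1 and H2-Aa are printed for their matches to the boxes. The motifs searched on both strands were the X box core (AG, any base, AAC, any base, GATG), the CRE-type sequence TGACGTCA that can follow it, and the Y box core GATTGG, none of which overlapped another in the windows shown. H2-Eb1 lies on chr17:34305617-34305866 (plus strand) and H2-Aa on chr17:34287824-34288073 (minus strand), printed 5′ to 3′ with the matches in capitals.
H2-Eb1: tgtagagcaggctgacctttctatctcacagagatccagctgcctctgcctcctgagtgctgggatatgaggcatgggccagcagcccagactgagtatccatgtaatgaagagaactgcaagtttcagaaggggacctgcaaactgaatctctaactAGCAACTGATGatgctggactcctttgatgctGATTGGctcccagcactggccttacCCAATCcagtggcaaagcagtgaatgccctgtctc
H2-Aa: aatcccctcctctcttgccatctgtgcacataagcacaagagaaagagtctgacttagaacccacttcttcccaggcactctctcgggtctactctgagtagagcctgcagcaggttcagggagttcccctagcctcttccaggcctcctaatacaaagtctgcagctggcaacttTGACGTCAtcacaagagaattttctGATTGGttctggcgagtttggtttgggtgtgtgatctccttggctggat
In H2-Eb1 an X box core, AGCAACTGATG, ended 81 bases before the start and was followed after 21 bases by a Y box core. In H2-Aa no X box core of these letters was found, and a TGACGTCA stood 17 bases before the Y box core. The window of H2-DMb1 (chr17:34152941-34153190, plus strand) held AGTAACTGATG followed after 22 bases by GATTGG, and the windows of H2-DMa held no X box core. Over all 32851 promoter windows of this length, 0.259% held the X box core, 1.55% the TGACGTCA and 14.6% the Y box core. An X box core followed by a Y box core within 40 bases on the same strand was found in 4 windows (0.0122%), which were those of H2-DMb1, H2-Eb1, its neighbour H2-Eb2, and Scgb2b20. These matches describe letters only, and binding was not measured.

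At 1 wpi the whole pathway was highest in the mice given IL-4 MSCs, in which all 7 genes rose against Sham, against PBS and against MSCs. The class II chains and Cd74 rose most, by 3.82 to 4.44 on the log2 scale against Sham, while Ciita rose by 0.98 and H2-DMa by 0.49. The share of all 17131 tested genes called higher was 18.4% in the comparison with Sham, 11.2% in that with PBS and 7.66% in that with MSCs. A call is an adjusted p under 0.05 in edgeR's quasi-likelihood test, with Benjamini-Hochberg adjustment over all genes tested, and comparisons that use the same group share its mice. In CPM, the mice given IL-4 MSCs lay above the other group without overlap for all 7 genes in each of these 3 comparisons. The same held for 20.6%, 11.5% and 8.61% of all genes. The median log2 fold change of the 7 genes was 3.82 against Sham, beside -0.02 over all genes tested. In bulk tissue, more cells that carry a gene and more RNA of it per cell cannot be told apart.

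H2-Aa (ENSMUSG00000036594, chromosome 17, 34282744 to 34287823, minus strand) encodes the alpha chain of the A pair. Its level in the 5 Sham mice was 1.202, 0.799, 1.48, 1.83 and 0.915 CPM. In PBS at 1 wpi it was 4.37, 4.098, 5.28, 4.96 and 3.62 CPM, and with MSCs 4.39, 4.51, 13.1, 4.35 and 4.57 CPM. With IL-4 MSCs it was 24.6, 27.3, 27.0, 17.6 and 24.6 CPM. Every mouse given IL-4 MSCs lay above every other mouse of week 1 and Sham, 1 mouse given MSCs stood well above the remaining 4, and the Sham mice lay below every injured mouse of week 1. H2-Aa was 18.2-fold higher with IL-4 MSCs than in Sham (log2 fold change 4.18 ± 0.43 SE, adjusted p = 2.25e-09) and 5.30-fold higher than with PBS (2.41 ± 0.38, adjusted p = 1.73e-05).

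H2-Ab1 (ENSMUSG00000073421, chromosome 17, 34257689 to 34269419, plus strand) encodes the beta chain that pairs with it. Sham mice had 1.17, 0.676, 1.45, 1.13 and 1.31 CPM. The mice at 1 wpi had 3.71, 4.93, 5.12, 4.20 and 3.57 CPM with PBS and 4.28, 5.16, 14.3, 4.77 and 4.32 CPM with MSCs. The mice given IL-4 MSCs had 24.7, 30.9, 29.2, 20.04 and 27.3 CPM. No mouse of the other groups reached the IL-4 MSC mice, and the same MSC mouse, number 3, was high. H2-Ab1 had the largest difference of the 7 genes against Sham, 21.8-fold (4.44 ± 0.40, adjusted p = 1.22e-10), and was 5.98-fold higher than with PBS (2.58 ± 0.35, adjusted p = 1.39e-06).

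H2-Eb1 (ENSMUSG00000060586, chromosome 17, 34305867 to 34316674, plus strand), the beta chain of the E pair, had 1.75, 0.984, 1.70, 1.54 and 1.04 CPM in Sham. At 1 wpi it had 3.67, 4.07, 5.25, 3.41 and 3.54 CPM with PBS and 4.61, 4.54, 11.2, 3.80 and 3.91 CPM with MSCs. With IL-4 MSCs it had 20.1, 24.9, 23.5, 15.8 and 20.4 CPM. The order of the groups and the high MSC mouse were those of the A pair. The difference of H2-Eb1 was 14.1-fold against Sham (3.82 ± 0.38, adjusted p = 1.19e-09) and 5.12-fold against PBS (2.36 ± 0.34, adjusted p = 5.31e-06).

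Cd74 (ENSMUSG00000024610, chromosome 18, 60803848 to 60812652, plus strand), the invariant chain, had 3.84, 2.53, 3.35, 3.66 and 3.18 CPM in Sham. At 1 wpi it had 7.62, 9.04, 10.1, 8.58 and 8.28 CPM with PBS and 9.02, 10.9, 26.5, 9.56 and 10.3 CPM with MSCs. With IL-4 MSCs it had 58.6, 74.2, 65.7, 49.0 and 60.7 CPM. These groups did not overlap except PBS with MSCs, and the lowest IL-4 MSC mouse was again number 4, as for the class II chains. Cd74 was 17.7-fold higher with IL-4 MSCs than in Sham (4.14 ± 0.43, adjusted p = 2.64e-09) and 6.89-fold higher than with PBS (2.78 ± 0.39, adjusted p = 2.91e-06), the largest difference of the 7 genes against PBS.

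Ciita (ENSMUSG00000022504, chromosome 16, 10480059 to 10528418, plus strand), the transactivator, spanned a narrower range. Its level in Sham was 3.10, 3.27, 1.87, 3.01 and 3.79 CPM. At 1 wpi it was 3.75, 3.06, 4.31, 2.59 and 3.21 CPM with PBS and 2.80, 3.85, 4.91, 3.37 and 4.26 CPM with MSCs. With IL-4 MSCs it was 5.04, 7.26, 6.07, 5.96 and 6.77 CPM. In CPM the IL-4 MSC mice lay above all others, but only narrowly above the high MSC mouse, and the remaining groups overlapped. Ciita was 1.97-fold higher with IL-4 MSCs than in Sham (0.98 ± 0.18, adjusted p = 4.86e-05) and 1.79-fold higher than with PBS (0.84 ± 0.18, adjusted p = 0.000819).

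H2-DMa (ENSMUSG00000037649, chromosome 17, 34119541 to 34139101, plus strand), the alpha chain of the peptide editor, had 7.60, 6.33, 8.22, 9.10 and 7.57 CPM in Sham. At 1 wpi it had 8.71, 8.93, 8.28, 8.53 and 8.60 CPM with PBS and 7.67, 8.59, 8.34, 8.64 and 9.14 CPM with MSCs. With IL-4 MSCs it had 10.6, 12.04, 11.6, 11.4 and 11.7 CPM. The IL-4 MSC mice stood above the rest, among which all groups overlapped, and MSC mouse 3 was not high. The rise of H2-DMa with IL-4 MSCs was 1.403-fold against Sham (0.49 ± 0.08, adjusted p = 7.21e-06) and 1.30-fold against PBS (0.38 ± 0.08, adjusted p = 0.000638), the smallest of the 7.

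H2-DMb1 (ENSMUSG00000079547, chromosome 17, 34153072 to 34160230, plus strand), the beta chain of the editor, had 0.726, 0.904, 0.845, 0.765 and 1.13 CPM in Sham. At 1 wpi it had 2.16, 2.32, 2.01, 1.96 and 1.87 CPM with PBS and 2.34, 1.89, 2.69, 1.59 and 1.72 CPM with MSCs. With IL-4 MSCs it had 3.61, 6.14, 4.11, 4.31 and 4.93 CPM. Sham, then PBS and MSCs together, then IL-4 MSCs formed steps without overlap. The share of all genes without overlap between Sham and PBS or MSCs at 1 wpi is not given here. H2-DMb1 was 5.06-fold higher with IL-4 MSCs than in Sham (2.34 ± 0.20, adjusted p = 4.28e-11) and 2.18-fold higher than with PBS (1.13 ± 0.19, adjusted p = 3.30e-05). The program kallisto matches reads to transcript words, and 37.6% of the words of H2-DMb1 also occur in its near copy H2-DMb2. The split of reads between them is therefore uncertain. These words were counted in a GENCODE release earlier than the M23 that kallisto used. The copies summed had 1.78 to 3.00 CPM in Sham and 6.88 to 10.2 CPM with IL-4 MSCs, and as 1 gene they rose by 1.75 on the log2 scale (adjusted p = 1.25e-11).

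**Figure D1:**
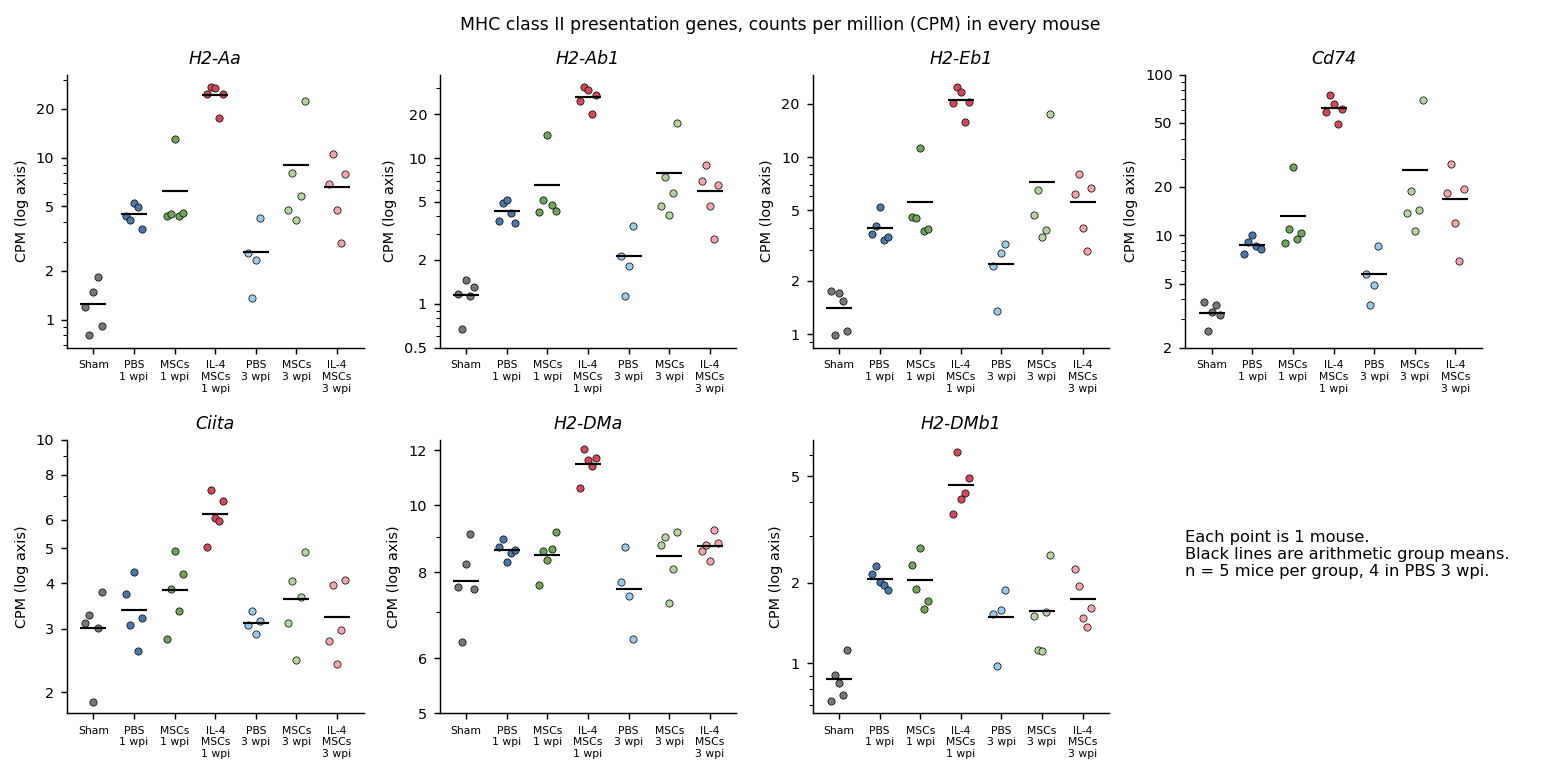
CPM of each of the 7 genes in every mouse (log axes, 1 panel per gene, groups along the horizontal axis, black lines for group means). The IL-4 MSC mice at 1 wpi have the highest mean in each panel, and 1 MSC mouse at 1 wpi (26.5 CPM of Cd74) and 1 at 3 wpi (69.3 CPM) stand apart from their groups for the class II chains and Cd74.

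Part of the pathway was higher after injury and PBS injection, which cannot be told apart here. In PBS mice at 1 wpi, 5 of the 7 genes were called higher than in Sham, where 8.73% of all genes tested were higher: H2-Aa (3.43-fold, adjusted p = 0.00567), H2-Ab1 (3.64-fold, adjusted p = 0.00180), H2-Eb1 (2.76-fold, adjusted p = 0.0104), Cd74 (2.57-fold, adjusted p = 0.0360) and H2-DMb1 (2.32-fold, adjusted p = 8.09e-05). Ciita (1.10-fold, adjusted p = 0.709) and H2-DMa (1.08-fold, adjusted p = 0.418) were not called. With H2-DMb1 and H2-DMb2 summed as 1 gene the log2 fold change was 0.74 (adjusted p = 0.000439), in place of 1.21 for H2-DMb1. Against the 2 Sham mice of week 1 alone only H2-DMb1 was called, and the log2 fold changes of the other 4 were 1.24 to 1.68, with adjusted p of 0.0632 to 0.211. Cd74 also lost its call when any 1 of the 5 Sham mice, or PBS mouse 2, 3 or 4, was left out.

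Mice given MSCs had the same 5 genes higher than Sham at 1 wpi, against a background of 11% of genes, with log2 fold changes of 1.19 for H2-DMb1 to 2.47 for H2-Ab1. Without MSC mouse 3 the same 5 genes were called, with log2 fold changes of 1.07 to 1.96. No gene of the 7 was called between MSCs and PBS at 1 wpi by edgeR or DESeq2, and 0.123% of all genes were higher. None had an unadjusted p under 0.05, beside 4.52% of all genes. The largest of these differences, 0.60 ± 0.35 for H2-Ab1, was 0.10 without MSC mouse 3. Against MSCs, IL-4 MSCs raised all 7 genes, by 0.41 for H2-DMa (adjusted p = 0.000311) and 0.67 for Ciita (adjusted p = 0.0106) up to 1.98 for H2-Ab1 (adjusted p = 7.09e-05) and 2.19 for Cd74 (adjusted p = 9.21e-05).

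At 3 wpi, 16 days after treatment, the class II chains and Cd74 were higher than in Sham after both cell treatments and not called after PBS. In PBS mice, H2-Aa was 2.57, 1.35, 2.34 and 4.26 CPM, H2-Ab1 2.13, 1.13, 1.81 and 3.44 CPM, and Cd74 5.75, 3.68, 4.92 and 8.53 CPM. PBS mouse 4 was highest and mouse 2, within the Sham range, was lowest for each of the 3 genes. None of the 7 was called against Sham by edgeR or DESeq2, beside 0.0233% of all genes called higher, and the 2 with an unadjusted p under 0.05 (5.34% of all genes) were H2-Aa, 2.04-fold higher, and H2-DMb1, 1.69-fold higher.

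With MSCs at 3 wpi, H2-Aa was 4.73, 7.998, 4.12, 5.79 and 22.3 CPM. H2-Ab1 was 4.69, 7.38, 4.09, 5.79 and 17.5 CPM, and H2-Eb1 was 4.69, 6.54, 3.56, 3.89 and 17.5 CPM. Cd74, the chaperone of these chains, was 13.7, 18.8, 10.6, 14.5 and 69.3 CPM. All 5 mice lay above the Sham mice for these 4 genes, as for 1.87% of all genes, and mouse 5 was 2.37 to 3.68 times the next highest mouse of its group. In this comparison 5 of the 7 genes were called higher, with a background of 1.11% of genes: Cd74 (7.57-fold, adjusted p = 0.000128), H2-Aa (7.03-fold, adjusted p = 0.000232), H2-Ab1 (6.78-fold, adjusted p = 0.000128), H2-Eb1 (5.08-fold, adjusted p = 0.000603) and H2-DMb1 (1.78-fold, adjusted p = 0.0411). Without mouse 5 the first 4 were still called, with log2 fold changes of 1.72 to 2.24, and H2-DMb1, whose groups overlapped, was not (0.59, adjusted p = 0.306).

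With IL-4 MSCs at 3 wpi, H2-Aa was 6.89, 10.6, 4.76, 2.98 and 7.94 CPM. H2-Ab1 was 6.92, 8.95, 4.70, 2.76 and 6.52 CPM, and H2-Eb1 was 6.16, 8.07, 3.99, 2.95 and 6.65 CPM. Cd74 was 18.3, 28.0, 11.96, 6.90 and 19.5 CPM. Mouse 2 was highest and mouse 4 lowest for each gene, and no mouse overlapped Sham, as for 2.4% of all genes. The same 5 genes were called higher than in Sham, with a background of 2.76% of genes, from 1.98-fold for H2-DMb1 (adjusted p = 0.00635) to 5.18-fold for H2-Aa (adjusted p = 0.00254). H2-DMb1 was not called with the striatum marker score as a covariate (0.92 in place of 0.98 on the log2 scale, adjusted p = 0.0644) or against the Sham mice of week 3 alone (0.91, adjusted p = 0.0854), and 8 of 13 striatum markers were higher than in Sham. Ciita was 1.87 to 4.89 CPM and H2-DMa 6.33 to 9.20 CPM over all mice of Sham and 3 wpi, and neither was called in any comparison among them.

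Between treatments at 3 wpi few differences passed. Against PBS, IL-4 MSCs had 2 of the 7 genes higher, with a background of 2.17%: Cd74 (2.98-fold, adjusted p = 0.0407) and H2-Ab1 (2.83-fold, adjusted p = 0.0360), although the 2 groups overlapped for both. The striatum markers differed in the same comparison, with 11 of 13 higher and a summed level of 416 to 2617 CPM against 246 to 575 CPM, and with their score as a covariate the log2 fold changes were larger, 2.02 in place of 1.58 for Cd74 and 1.75 in place of 1.499 for H2-Ab1, but not called (adjusted p = 0.136 and 0.191). DESeq2 called 3 genes, these and H2-Aa (1.34, adjusted p = 0.0445). MSCs had 1 gene higher than PBS, Cd74 (4.47-fold, adjusted p = 0.0311), with a background of 0.0817%, and without MSC mouse 5 it was 1.35 in place of 2.16 on the log2 scale and not called (adjusted p = 0.324). DESeq2 called 4 genes in this comparison, Cd74 and the class II chains, while the fits with only these 2 groups or with the replicate block called 0. Comparing the cell treatments at 3 wpi, edgeR and DESeq2 called none of the 7, and 2.29% of all genes were higher and 1.18% lower with IL-4 MSCs. None of the 7 had an unadjusted p under 0.05, as 17.9% of all genes did. The class II chains and Cd74 had log2 fold changes of -0.38 to -0.58 in this comparison and of 0.11 to 0.24 without MSC mouse 5.

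From 1 wpi to 3 wpi all 7 genes fell in the mice given IL-4 MSCs, where 16.6% of all genes fell. In CPM the 2 time points did not overlap for any of the 7, beside 18% of all genes. H2-Ab1 fell by 2.09 on the log2 scale (adjusted p = 1.11e-05), H2-Eb1 by 1.85 (adjusted p = 5.40e-05), H2-Aa by 1.81 (adjusted p = 0.000230) and Cd74 by 1.81 (adjusted p = 0.000273). H2-DMb1 fell by 1.36 (adjusted p = 8.24e-07), Ciita by 0.88 (adjusted p = 0.000227) and H2-DMa by 0.33 (adjusted p = 0.00115). In PBS mice and in MSC mice no gene of the 7 was called between the weeks by edgeR or DESeq2, beside 4.9% and 4.93% of all genes called lower. Unadjusted p fell under 0.05 for 2 genes in PBS mice and 1 in MSC mice, and for 16.4% and 18.2% of all genes. The log2 fold changes in PBS mice were -0.10 for Ciita to -1.01 for H2-Ab1, and those in MSC mice ran from -0.36 for H2-DMb1 to 0.96 for Cd74. Without MSC mouse 3 of week 1 Cd74 was called higher at 3 wpi (1.38, adjusted p = 0.0338), and without MSC mouse 5 of week 3 it was 0.15 (adjusted p = 0.861) while H2-DMb1 was called lower (-0.61, adjusted p = 0.0408).

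All 7 genes separated IL-4 MSCs from MSCs by more at 1 wpi than 16 days after treatment, tested as an interaction of treatment and week in which 5.96% of all genes were called in that direction. The interaction was 2.77 ± 0.53 on the log2 scale for Cd74 (adjusted p = 0.000726) and 2.25 to 2.39 for the class II chains. It was 1.00 for H2-DMb1 (adjusted p = 0.0177), 0.83 for Ciita (adjusted p = 0.0371) and 0.36 for H2-DMa (adjusted p = 0.0402). Without MSC mouse 5 of week 3, 4 genes were called, Cd74 (1.98, adjusted p = 0.00147) and the class II chains (1.64 to 1.88). With the striatum score as a covariate Ciita (0.80 in place of 0.83, adjusted p = 0.0640) and H2-DMa (0.25 in place of 0.36, adjusted p = 0.123) were not called. The same interaction against PBS was called for no gene by edgeR and for 1 by DESeq2, with 5 at an unadjusted p under 0.05 (17.5% of all genes), a background of 3.93% called higher and values of 0.16 for H2-DMa to 1.21 for Cd74. With H2-DMb1 and H2-DMb2 summed as 1 gene it was 0.79, in place of 0.90 for H2-DMb1, and called by edgeR (adjusted p = 0.0169). The interaction of MSCs against PBS was called for none of the 7 by either tool, with values of -0.05 for Ciita to -1.56 for Cd74. Of them 3 had an unadjusted p under 0.05 (3.34% of all genes, in either direction). No gene of the 17131 was called higher in this interaction, but the values of all 7 were negative. The share of all genes called lower is not given here.

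**Figure D2:**
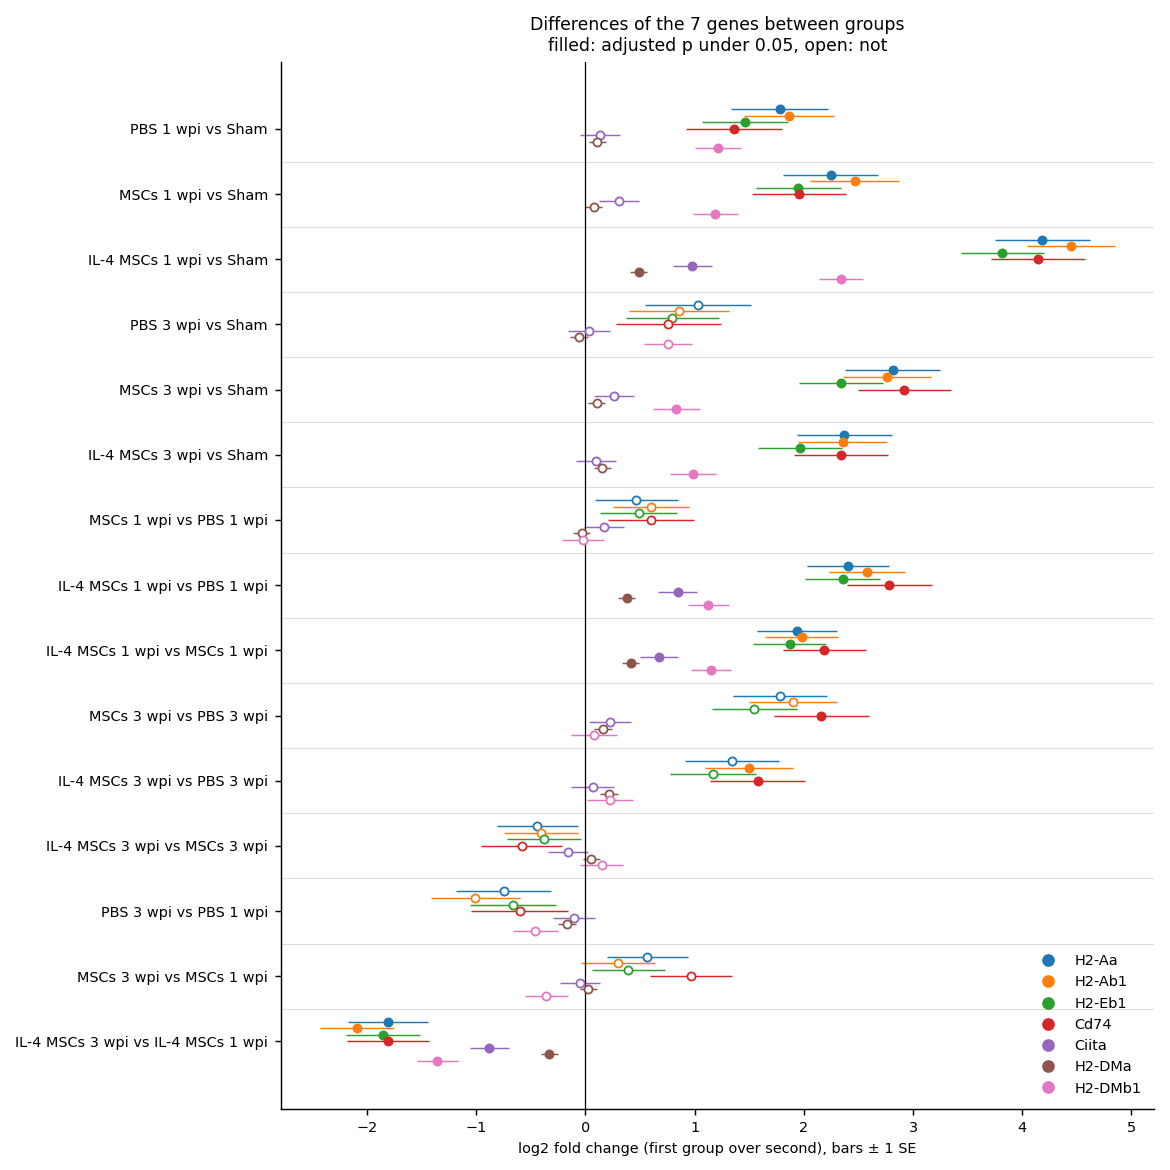
Log2 fold changes of the 7 genes in 15 comparisons (points, with bars of 1 SE; filled where the adjusted p was under 0.05). The filled points lie farthest to the right for IL-4 MSCs against Sham at 1 wpi, where they run from 0.49 for H2-DMa to 4.44 for H2-Ab1.

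Ordered by mean level, IL-4 MSCs at 1 wpi came first for every gene. The means were 61.7 ± 9.26 CPM (SD, n = 5) for Cd74, 26.4 ± 4.23 CPM for H2-Ab1, 24.2 ± 3.92 CPM for H2-Aa and 21.0 ± 3.53 CPM for H2-Eb1. For these 4 genes MSCs at 3 wpi came second, at 25.4 ± 24.7 CPM for Cd74 and 7.90 ± 5.53 CPM for H2-Ab1, an SD set by mouse 5. Between the first and the second place the mice did not overlap for H2-Ab1 and overlapped for H2-Aa, H2-Eb1 and Cd74, again through mouse 5. The groups in places 2 to 5 (MSCs and IL-4 MSCs at 3 wpi, MSCs and PBS at 1 wpi) overlapped with one another in turn. PBS at 3 wpi followed, without overlap with PBS at 1 wpi for H2-Ab1 and H2-Eb1 and with overlap for H2-Aa and Cd74. Neither H2-Ab1 (adjusted p = 0.181) nor H2-Eb1 (adjusted p = 0.426) was called by edgeR between these groups. The share of all genes without overlap between them is not given here. Sham came last, overlapping PBS at 3 wpi. For Ciita and H2-DMa every pair of neighbours below the first place overlapped, and H2-DMa was lowest in PBS at 3 wpi (7.55 ± 0.95 CPM, n = 4) rather than in Sham (7.76 ± 1.01 CPM).

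Levels between genes were compared per transcript length, as TPM, the usual unit scaled for length and depth. In Sham the most abundant of the 7 was H2-DMa at 12.8 ± 2.36 TPM, followed by Cd74 at 6.02 ± 0.95 TPM, while H2-Aa, H2-Ab1 and H2-Eb1 were at 2.60 to 2.74 TPM and Ciita at 1.98 ± 0.762 TPM. With IL-4 MSCs at 1 wpi the order was Cd74 at 111.6 ± 15.9 TPM, H2-Ab1 at 62.3 ± 10.8 TPM, H2-Aa at 51.8 ± 8.22 TPM, H2-Eb1 at 38.0 ± 5.99 TPM, H2-DMa at 20.4 ± 0.858 TPM, H2-DMb1 at 7.59 ± 1.52 TPM and Ciita at 3.21 ± 0.731 TPM. In TPM the IL-4 MSC mice at 1 wpi were not apart for Ciita, at 2.033 to 4.044 TPM. Sham had 1.025 to 3.147 TPM, and at 1 wpi PBS had 1.483 to 2.237 and MSCs 1.835 to 3.153 TPM. IL-4 MSC mice at 3 wpi had 1.221 to 2.248 TPM of Ciita. The stoichiometry of the transcripts thus differed between the groups, while within the A pair the group medians stayed near even. The ratio of H2-Aa to H2-Ab1 TPM had group medians of 0.835 to 1.11, and that of Cd74 to H2-Ab1 of 1.47 to 2.19. In single mice the ratio of H2-Aa to H2-Ab1 ran from 0.648 with MSCs at 1 wpi to 1.76 in Sham. The ratio of H2-DMa to H2-Ab1 was 3.76 to 7.11 in Sham and 0.292 to 0.446 with IL-4 MSCs at 1 wpi, and that of Ciita to H2-Ab1 was 0.351 to 1.49 and 0.0335 to 0.0753. H2-DMb1 stayed below H2-DMa, at 0.0816 to 0.169 per H2-DMa in Sham and 0.311 to 0.472 with IL-4 MSCs at 1 wpi. This ratio leaves out the near copy H2-DMb2, so it is not that of all beta chain transcripts to the alpha chain. The median share of H2-DMb1 in the summed CPM of both copies was 38.4% in Sham and 55.8% with IL-4 MSCs at 1 wpi. The part of the uncertain split of reads in the higher ratio was not tested.

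**Figure D3:**
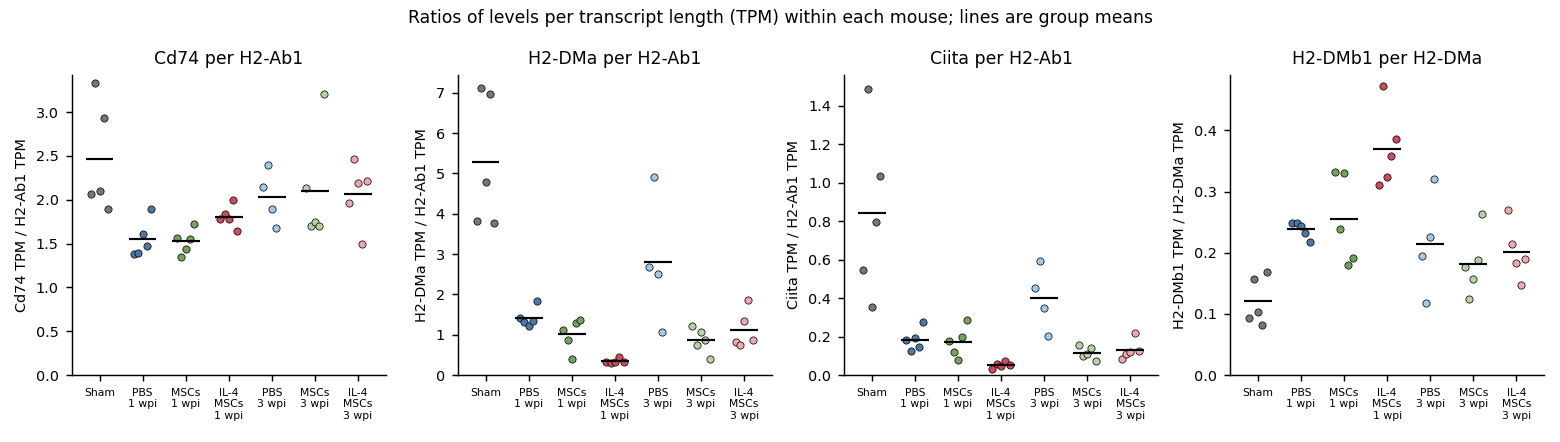
Ratios of TPM within each mouse for 4 pairs of genes (linear axes from 0, lines for group means). H2-DMa exceeded H2-Ab1 in all Sham mice (3.76 to 7.11) and was below it in all IL-4 MSC mice at 1 wpi (0.292 to 0.446), whereas Cd74 per H2-Ab1 stayed between 1.35 and 3.33 in all mice.

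The 2 MSC mice that stood apart did so for a part of the pathway. MSC mouse 3 at 1 wpi was 2.43 to 2.87 times the next mouse of its group for the class II chains and Cd74, but 1.15 times for Ciita and H2-DMb1 and below the highest other mouse for H2-DMa. MSC mouse 5 at 3 wpi was 1.21 times the next mouse for Ciita, 1.02 times for H2-DMa and 1.64 times for H2-DMb1. Its summed level of the 11 class I presentation genes was 491 CPM, against 269 to 300 CPM in the other 4 mice, and that of 8 border macrophage markers 26.0 CPM, against 7.96 to 9.50 CPM. Its 10 genes of the IL-4 pathway and response summed to 70.3 CPM, against 34.0 to 38.7 CPM, and its 8 microglia markers to 305 CPM, within the 274 to 308 CPM of the others. Its 5 pan-leukocyte markers summed to 194 CPM, against 133 to 146 CPM, and its 8 B cell markers to 6.92 CPM, against 1.21 to 3.56 CPM. B cell sums of 6.23 and 5.68 CPM were also found in PBS mouse 1 at 3 wpi and Sham mouse 4. Their class II sums were 25.2 and 21.0 CPM, beside 143 CPM in MSC mouse 5. The 10 dendritic cell markers of MSC mouse 5 summed to 222 CPM, below the 226 to 262 CPM of the other 4. In Sham mice that sum was already 221.5 to 258.9 CPM, above their 121.7 to 156 CPM of 5 pan-leukocyte markers. It therefore does not give the amount of dendritic cells. The monocyte and T cell markers of MSC mouse 5 summed to 38.1 against 31.1 to 33.9 CPM and 12.7 against 8.41 to 11.6 CPM. In mouse 3 at 1 wpi the sums of class I, border macrophage, IL-4 and microglia genes were 379 CPM against 341 to 372 CPM, 21.3 against 12.7 to 16.8 CPM, 71.4 against 44.4 to 54.3 CPM, and 427 against 384 to 400 CPM. Its pan-leukocyte, T cell and monocyte sums were 244 against 192 to 199 CPM, 10.2 against 4.63 to 8.87 CPM, and 51.45 against 41.0 to 57.5 CPM. Its dendritic and B cell sums were 244 against 234 to 241 CPM and 1.68 against 1.42 to 3.44 CPM. The part of these markers in the class II levels was not tested.

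Over the 34 libraries, H2-Aa, H2-Ab1, H2-Eb1 and Cd74 had Pearson correlations of 0.983 to 0.989 with one another on log2 CPM. Their correlations were 0.845 to 0.889 with H2-DMb1, 0.731 to 0.758 with Ciita and 0.739 to 0.756 with H2-DMa. The libraries share groups and treatments, so these values describe the pattern over groups as well as over mice. Among all other genes that passed the filter, the 10 most like the mean of these 4 were H2-Q7, H2-D1, Klrd1, Nlrc5, H2-K1, H2-Q6, B2m, H2-Q4, Slamf7 and Psmb9 (r = 0.95 to 0.915). After each group's mean was subtracted, their correlations were lower, from 0.506 for H2-Q6 to 0.736 for B2m. Of them H2-Q7, H2-D1, H2-K1, H2-Q6 and H2-Q4 are class I heavy chains, B2m is their light chain, Nlrc5 is the class I transactivator related to Ciita, and Psmb9 is an immunoproteasome subunit. H2-Q family members and H2-D1 and H2-K1 are similar in sequence, so the split of reads among them is uncertain. Klrd1 is a natural killer cell receptor chain and Slamf7 an activation receptor of lymphoid and myeloid cells. Both were low, with means of 0.234 and 0.874 CPM over all libraries.

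The genes that work with class II rose in part with it. Of 20 other class II pathway names listed, 15 were tested, and 11 of them were higher with IL-4 MSCs at 1 wpi than in Sham (18.4% of all genes were) and 7 higher and 1 lower than with PBS (11.2% and 6.16% of all genes). Ctsl, an endosomal protease, rose 1.01 on the log2 scale against PBS (adjusted p = 2.75e-10), and the proteases Lgmn and Ctsb rose 0.78 (adjusted p = 3.47e-09) and 0.52 (adjusted p = 8.12e-09). Cd68, a lysosomal protein of macrophages, rose 1.34 (adjusted p = 1.24e-07), and Ctss, the main protease that trims the invariant chain, rose 1.47 (adjusted p = 2.86e-07). The gene called lower was Tspan33, a tetraspanin of the cell surface (-0.19, adjusted p = 0.0300). The inhibitors of H2-DM, H2-Oa and H2-Ob, had 0.74 (adjusted p = 0.0576) and 0.51 (adjusted p = 0.0577). The ubiquitin ligase genes March1, which removes class II from the surface, and March8, a relative, had -0.14 (adjusted p = 0.179) and -0.07 (adjusted p = 0.254).

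The 8 factors that sit on class II promoters had a median log2 fold change of -0.01 against PBS and -0.01 against Sham. Atf1 (0.32, adjusted p = 0.000133) and Nfya (0.19, adjusted p = 0.0215) were called higher than with PBS, and none was lower, beside the 11.2% of all genes called higher. Rfx5, whose loss abolishes class II in patients, had -0.04 (adjusted p = 0.606). Of 15 listed regulators of Ciita, 13 were tested and 11 were higher than with PBS, among them Tgfb1 (1.06, adjusted p = 1.03e-07), Irf1 (0.79, adjusted p = 2.69e-07) and Socs1 (1.61, adjusted p = 3.09e-07). Irf1 carries the interferon-gamma signal, Socs1 dampens it, and Tgfb1 is known to restrain Ciita. Ifng itself had 0 to 3 counts and Il10 0 or 1 count in each library, which is too few to compare.

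Class I presentation moved in the same direction, beside 18.4%, 11.2% and 7.66% of all genes called higher against Sham, PBS and MSCs. All 11 genes of that list were higher with IL-4 MSCs at 1 wpi than in Sham, PBS and MSCs, with medians of 2.68, 1.63 and 1.37 on the log2 scale. Against PBS the transporter adapter Tapbp rose 0.75 (adjusted p = 5.85e-12), the heavy chains H2-D1 and H2-K1 rose 2.03 and 2.26 (adjusted p = 3.65e-11 and 1.24e-10), and the light chain B2m rose 1.63 (adjusted p = 1.43e-10). Of the 7 genes of the costimulation list, which also holds inhibitory ligands, 4 were higher than with PBS. Pdcd1lg2, an inhibitory ligand known to respond to IL-4, rose most (4.74, adjusted p = 2.03e-12), followed by Cd274, also an inhibitory ligand (1.24). Cd86 and Cd40 rose by 0.70 and 0.36. Of the 10 genes of the IL-4 pathway and response 8 were higher than with PBS, and their summed level was 380 to 551 CPM against 44.2 to 58.6 CPM. Cd80 (0.11, adjusted p = 0.608) and Cd83 (0.16, adjusted p = 0.372) were not called.

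Markers of cells that carry class II were read beside the 7 genes. At 1 wpi the 8 microglia markers summed to 377 to 475 CPM with IL-4 MSCs, 356 to 474 CPM with PBS and 384 to 427 CPM with MSCs, and 1 of 8, Sall1, was higher than with PBS (0.23, adjusted p = 0.00179), a share near the 11.2% of all genes called higher in this comparison. The 6 monocyte markers summed to 70.4 to 82.3 CPM, 35.9 to 47.1 CPM and 41.0 to 57.5 CPM in the same order, and all 6 were higher than with PBS, with Ly6c2, which marks inflammatory monocytes, at 3.85 on the log2 scale. The 8 border macrophage markers summed to 59.8 to 79.7 CPM, 13.3 to 18.8 CPM and 12.7 to 21.3 CPM. Of them 4 were higher than with PBS, Cbr2, Cd163, Ms4a7 and Pf4, while Lyve1 was not (-0.78, adjusted p = 0.113). Of 5 pan-leukocyte markers 3 were higher than with PBS, and of 9 stromal markers, genes of mesenchymal cells, 4 were. The sums of the 7 class II genes in these groups were 124 to 183 CPM, 32.7 to 40.3 CPM and 35.1 to 81.1 CPM.

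Of the 10 dendritic cell markers 3 were higher than with PBS, as were 11.2% of all genes: Itgax (1.42, adjusted p = 0.00255), Batf3 (1.42, adjusted p = 0.000190) and Cd209a (2.62, adjusted p = 7.37e-05), of which the first is shared with activated macrophages. The markers of cross-presenting dendritic cells Xcr1 (0.05, adjusted p = 0.868) and Clec9a (0.35, adjusted p = 0.581) were not called. B cell markers were near the floor: 4 of the 8 passed the filter, and none was called by edgeR between IL-4 MSCs and PBS at 1 wpi. The 9 T cell markers, whose cells read class II, summed to 8.11 to 13.1 CPM with IL-4 MSCs and 5.07 to 7.14 CPM with PBS at 1 wpi, and Cd2 and Cd4 were called higher. The striatum markers of the same mice summed to 471 to 919 CPM and 324 to 454 CPM, and their part in the T cell sums was not tested. At 3 wpi, 6 of the 9 T cell markers were higher than in Sham with MSCs and 7 with IL-4 MSCs, beside 1.11% and 2.76% of all genes, among them Cd8a (2.46, adjusted p = 1.63e-06, and 2.21, adjusted p = 1.34e-05), and none with PBS. Striatum markers at 3 wpi summed to 416 to 2617 CPM with IL-4 MSCs, 288 to 764 with MSCs, and in Sham to 234 to 912. With IL-4 MSCs 8 of these 13 were higher than in Sham, and their part in the T cell calls was not tested. The part of any of these cells in the class II levels was not tested.

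**Figure D4:**
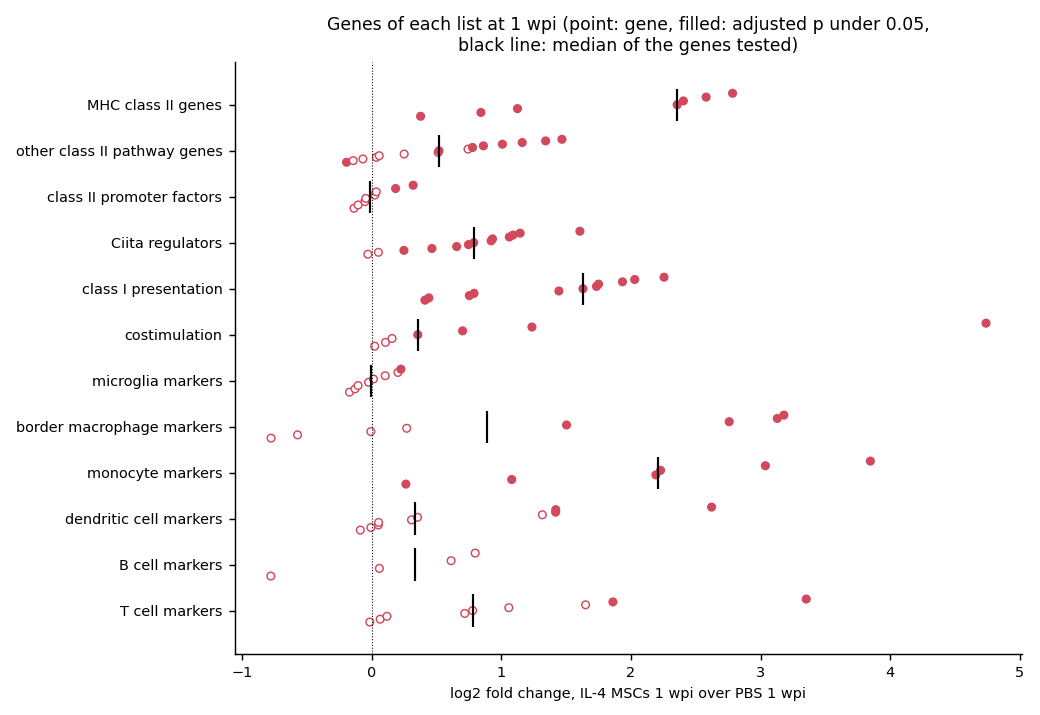
Log2 fold changes between IL-4 MSCs and PBS at 1 wpi for the genes tested in each list (1 point per gene, filled where the adjusted p was under 0.05, black lines for medians). The 7 class II genes have a median of 2.36, beside -0.01 for the class II promoter factors and 2.21 for the monocyte markers.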

How the data were processed

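RNA was measured in tissue of 34 mice, 1 library each. The authors sequenced pairs of 50-base reads, trimmed them with cutadapt 2.4 and estimated counts and TPM against protein-coding GENCODE transcripts of GRCm38 (release M23) with kallisto 0.46, without use of strand stated in the sources used here. The deposited estimated counts and TPM were used as given per mouse, and all sample columns could be mapped (0 unmapped). The deposited p-values, q-values and log fold changes of the authors' own sleuth comparisons were not used, and sleuth itself could not be rerun, since it needs repeat estimates per library that were not used here.

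Estimated counts, of which 63.6% were not whole, were rounded and tested with edgeR 4.0.16 (R 4.3.3): TMM scaling (factors 0.968 to 1.04), filterByExpr by group, 1 coefficient per group over all 34 libraries, the quasi-likelihood F test, and Benjamini-Hochberg adjustment over 17131 genes at 0.05. The steps were tested on simulated data. CPM used the plain total of each library, correlations used log2 CPM with a prior count of 2, and the precision of a level is limited by its counts, from 22 in a Sham mouse upward for the 7 genes. DESeq2 1.42.0, other scaling, no filter, a replicate block, a striatum score as covariate, single-week Sham mice, 2-group fits and leaving out each mouse were tried as alternatives. The sum of H2-DMb1 and H2-DMb2 was added after the data were seen.

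The 7 genes and the other lists were chosen with earlier results of these data known, and the motifs were spelled with the class II promoters in view. Besides the 7 genes, up to 4 genes per list were named by smallest adjusted p, and the 10 genes most like the class II chains and Cd74, while some listed genes are not reported here. Named for their role, after their values were seen, were Ctss, Tspan33, H2-Oa, H2-Ob, March1, March8, Rfx5, Cd80, Cd83, Lyve1, Xcr1, Clec9a, Ifng, Il10 and H2-Ea-ps. Mice are labelled as separate animals. Promoter sequences came from RefSeq (GRCm38.p6), which matched 4 of the 7 genes. Gene positions and the words shared with H2-DMb2 came from a GENCODE release earlier than M23.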

Additional observations from a re-analysis of the deposited data

Results flagged for a closer look

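In 9 of the 49 groups of 4 or 5 mice tested, 1 gene and 1 group at a time, a mouse lay far from its group by Dixon's criterion, which chance exceeds in about 1 of 20 groups; the 7 genes are not independent of each other. MSC mouse 3 at 1 wpi stood above its group for H2-Aa (13.12 CPM, others 4.351 to 4.571), H2-Ab1 (14.29, others 4.277 to 5.162), H2-Eb1 (11.19, others 3.803 to 4.61) and Cd74 (26.54, others 9.019 to 10.91). MSC mouse 5 at 3 wpi stood above its group for H2-Aa (22.29 CPM, others 4.12 to 7.998), H2-Ab1 (17.52, others 4.089 to 7.38), H2-Eb1 (17.47, others 3.558 to 6.539) and Cd74 (69.34, others 10.59 to 18.84). IL-4 MSC mouse 4 at 1 wpi lay below its group for H2-Aa (17.59 CPM, others 24.57 to 27.33).

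The effect of IL-4 MSCs against MSCs differed between 1 wpi and 3 wpi for all 7 genes, of 21 interactions tested with edgeR. The difference on the log2 scale was 2.3778 for H2-Aa, 2.3851 for H2-Ab1, 2.2482 for H2-Eb1, 2.7711 for Cd74, 0.8318 for Ciita, 0.3595 for H2-DMa and 1.0007 for H2-DMb1.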

How the results depend on the processing

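The counts of called genes among the 7 were the same for IL-4 MSCs at 1 wpi against Sham, PBS and MSCs, and for their fall to 3 wpi, under each alternative run. PBS against Sham at 1 wpi had 1 call with the Sham mice of week 1 alone. IL-4 MSCs against PBS at 3 wpi had 0 calls with the replicate block, with the striatum score and with only these 2 groups, 3 with DESeq2, and 0 to 2 when 1 mouse was left out, with fewer than 2 without PBS mouse 1, 2 or 3 or IL-4 MSC mouse 1, 2, 3 or 5. MSCs against PBS at 3 wpi had 0 with the replicate block and with only these 2 groups, 2 with the striatum score, 4 with DESeq2, and 0 to 3 when 1 mouse was left out, with 0 without PBS mouse 1, 2 or 3 or MSC mouse 5 and more without PBS mouse 4 or MSC mouse 1, 3 or 4. The interaction of IL-4 MSCs and PBS with week had 1 call with the replicate block (Ciita, adjusted p = 0.0426), 1 with DESeq2, and 0 to 2 when 1 mouse was left out, with calls without PBS mouse 2 or 3 or IL-4 MSC mouse 1 or 3 of week 1, or PBS mouse 2 or IL-4 MSC mouse 1 or 2 of week 3. With H2-DMb1 and H2-DMb2 summed, the same interaction was called for the sum (adjusted p = 0.0169). That of IL-4 MSCs and MSCs had 4 to 7, the lowest without MSC mouse 5 of week 3, and H2-DMa was not called without the filter or with the replicate block (adjusted p = 0.0523 in both). H2-DMb1 with MSCs at 3 wpi against Sham also lost its call with the replicate block (adjusted p = 0.0649), with only these 2 groups, with the Sham mice of week 3, and without Sham mouse 1, 2, 3 or 4 or MSC mouse 1, 4 or 5. MSCs between weeks had 0 to 1, with a call without MSC mouse 3 of week 1 or mouse 5 of week 3. Of 32 differences of Ciita, H2-DMa and H2-DMb1 called in no fit, 13 changed sign under an alternative, all at most 0.11 in size in the reported fit. Leaving out a mouse also turned the sign of uncalled differences of the class II chains and Cd74: between MSCs and PBS at 1 wpi for H2-Aa (-0.0086 to 0.57), between the cell treatments at 3 wpi for H2-Aa (-0.67 to 0.22), H2-Ab1 (-0.60 to 0.11), H2-Eb1 (-0.55 to 0.24) and Cd74 (-0.84 to 0.22), and between the weeks with MSCs for H2-Aa (-0.10 to 1.04), H2-Ab1 (-0.23 to 0.80) and H2-Eb1 (-0.24 to 0.80). The mouse numbers did not pair the samples: deviations of same-numbered mice of different groups had a median correlation of 0.0118 over 99 pairs, beside 0.000999 over 396 pairs of different numbers. The cause of these changes was not tested.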
